A study of Mus musculus with 9 samples.

Results

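The genes described here carry names linked to the axoneme of motile cilia, the microtubule core that lets a cilium beat. They were taken by name: the protein-coding genes of the deposited annotation whose symbols are those of the Cfap proteins (cilia and flagella associated proteins), axonemal dynein heavy chains (Dnah), dynein light chains (Dnal1, Dnal4 and Dnali1), dynein assembly factors (Dnaaf), radial spoke proteins (Rsph), tektins (Tekt) and the sperm-associated antigens Spag6, Spag6l, Spag16 and Spag17. This gave 72 genes of the 33175 with at least 1 count, 18409 of which are protein-coding. The deposited annotation gives 58 of the 72 a cell component term for cilium, axoneme, flagellum or dynein, and gives 11 no cell component term. The 72 genes were counted in hippocampal RNA of female mice aged 9 months, in 9 libraries and 3 groups of 3. In the treated group, 3xTg mice had received oral LP-10d, 10 mg/kg a dose, 4 doses a week over 1 month. The other groups, 3xTg vehicle and WT vehicle, were given solvent only. The labels give C57BL/6J as the genotype of WT mice. For 3xTg mice the genotype they give includes the Swedish APP change and tau P301L. The 3xTg mouse is widely used as a model of Alzheimer's disease, and was in origin made on a background other than C57BL/6J. Strain background and transgenes therefore cannot be told apart in a comparison with WT. LP-10d is described, in the title of the series, only as a modulator of 3 kinases.

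A motile axoneme has an outer ring of doublet microtubules and a central pair. Dynein arms on the doublets slide them past each other, radial spokes and the central apparatus time the strokes, and tektins and many Cfap proteins lie inside or along the doublets. In the adult brain such cilia stand on ependymal cells, which line the ventricles. Choroid plexus epithelium also bears cilia, and whether these are motile in the adult was not examined here. Most neurons and astrocytes have a single primary cilium, which lacks dynein arms and a central pair. The transcription factors Foxj1 and the RFX family drive axoneme genes in cells with motile cilia. The hippocampus borders the lateral ventricle, so a dissected piece can hold some ependyma and choroid plexus. In bulk RNA, fewer cells of a type and less RNA per cell cannot be told apart.

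RFX factors bind the X-box, searched here as GTTNCC followed 2 bases later by its own inverted copy, of which GTTGCCA is a short form; a forkhead factor such as Foxj1 can bind TGTTTAC. Of the 72 genes, 60 matched an entry in RefSeq promoter sequences (GRCm38.p6). In the 250 bases before the start of transcription, on either strand, GTTGCCA occurred in 11 of these 60 genes (18.3%), against 1133 of all 27025 genes with a sequence (4.19%). The X-box occurred in 1 of 60 (1.67%, Cfap298), against 120 of 27025 (0.444%). TGTTTAC occurred in 4 of 60 (6.67%), against 956 of 27025 (3.54%). GTTGCCA can be part of an X-box. A match is only a string of letters in this window. Tekt1, Cfap300, Cfap44 and Cfap20 are shown because they carry GTTGCCA in the genes whose levels are followed below, and because the first 3 varied more between libraries than the last. Only windows with at most 3 bases in GENCODE M21 exons were shown, which left out Cfap298. The capitals mark GTTGCCA, which reads TGGCAAC on the other strand, and, in Cfap20, TGTTTAC, which reads GTAAACA. Each sequence runs 5′ to 3′ and ends at the base before the RefSeq start.
Tekt1, chr11:72361883-72362132, minus strand: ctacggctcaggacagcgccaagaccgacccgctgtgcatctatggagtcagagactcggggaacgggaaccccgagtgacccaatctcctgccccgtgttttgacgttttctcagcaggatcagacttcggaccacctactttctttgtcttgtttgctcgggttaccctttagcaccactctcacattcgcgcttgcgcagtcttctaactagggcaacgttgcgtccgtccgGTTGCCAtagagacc
Cfap300, chr9:8042876-8043125, minus strand: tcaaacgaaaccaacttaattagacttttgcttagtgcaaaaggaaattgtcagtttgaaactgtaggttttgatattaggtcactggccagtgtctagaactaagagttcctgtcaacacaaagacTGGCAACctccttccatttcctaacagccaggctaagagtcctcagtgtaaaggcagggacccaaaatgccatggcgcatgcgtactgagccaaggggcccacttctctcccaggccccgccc
Cfap44, chr16:44394549-44394798, plus strand: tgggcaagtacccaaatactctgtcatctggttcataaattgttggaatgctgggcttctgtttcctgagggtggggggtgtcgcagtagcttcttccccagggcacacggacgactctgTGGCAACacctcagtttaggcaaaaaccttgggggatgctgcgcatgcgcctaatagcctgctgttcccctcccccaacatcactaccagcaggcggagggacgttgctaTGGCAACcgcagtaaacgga
Cfap20, chr8:95434870-95435119, minus strand: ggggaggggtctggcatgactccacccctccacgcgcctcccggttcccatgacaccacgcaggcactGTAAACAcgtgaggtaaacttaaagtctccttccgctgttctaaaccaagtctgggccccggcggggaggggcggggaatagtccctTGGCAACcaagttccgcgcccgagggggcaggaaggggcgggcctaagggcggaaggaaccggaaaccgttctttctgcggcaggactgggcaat
The window of Tekt1 lies inside the longer Tekt1 gene of GENCODE M21, outside its exons. In Tekt1 the short RFX motif begins 15 bases before the start of transcription, in Cfap20 95 bases before it. In Cfap44 it occurs at 2 places. Over the 9 libraries the highest level was 3.95 times the lowest for Tekt1, 3.06 times for Cfap44, 1.56 times for Cfap300 and 1.22 times for Cfap20. As the 4 genes were chosen partly for this contrast, it does not bear on the motif.

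Axoneme genes were weakly expressed in these pieces. Together they took between 0.056% and 0.0783% of the counts of a library, in libraries of 16582086 to 19170969 counts. Of the 72 genes, 68 passed the filter on low counts and were tested, with 17396 genes in all. The other 4, Dnaaf2, Rsph6a, Tekt3 and Cfap97d1, summed to between 18 and 63 counts over the 9 libraries. Rsph6a, known from sperm, had 0.451, 0.356 and 0.439 CPM in LP-10d libraries, 0.421, 0.624 and 0.545 CPM in 3xTg vehicle libraries and 0.114, 0.419 and 0.111 CPM in WT vehicle libraries; 1 count was worth 0.0524 to 0.0593 CPM. CPM are counts scaled to a common library total. The median gene of the 72 had 535 counts in all, and the richest, Dnal1, had 17352.

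On deposited FPKM, which corrects for gene length, the median of the 68 tested genes was 0.73, and 37 of them averaged under 1 FPKM. Dynein light chains Dnal4 and Dnal1 averaged 19.5 and 15.4 FPKM, and Cfap36 averaged 17.8 FPKM. The 15 dynein heavy chains, the motors themselves, had a median of 0.263 FPKM, with Dnah9 highest at 1.71 FPKM and Dnah8, a chain known from sperm, lowest at 0.0346 FPKM. Class medians were 1.89 FPKM for 7 radial spoke proteins, 1.22 FPKM for 4 tektins, 0.81 FPKM for 4 central apparatus proteins, 0.775 FPKM for 32 Cfap proteins and 0.731 FPKM for 3 dynein assembly factors.

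The abundant members were also the steady ones. The 8 genes with a mean of at least 5 FPKM varied at most 1.79-fold between the highest and lowest of the 9 libraries. Cfap36, a protein with a BART-like domain that is found outside motile cilia too, had 49.9, 50.7 and 49.2 CPM in LP-10d libraries, 50.4, 47.8 and 44.8 CPM in 3xTg vehicle libraries and 50.6, 46.7 and 50 CPM in WT vehicle libraries. Its groups overlapped fully. In all, 9 genes varied less than 1.5-fold, and 25 varied at least 3-fold. The widest range belonged to Dnah11, an outer-arm dynein heavy chain, named here for its spread after its values were seen. It had 4.12, 4.21 and 0.878 CPM in LP-10d libraries, 2.95, 2.04 and 0.218 CPM in 3xTg vehicle libraries and 3.37, 7.02 and 5.40 CPM in WT vehicle libraries, a 32.2-fold range. Low counts can widen such a range, and 23 of the 68 genes had under 300 counts over all libraries. Dnah11 had 546 counts in all, but only 4 in its lowest library, 3xTg vehicle replicate 3, against 134 in its highest, WT vehicle replicate 2. The cause of its spread was not tested.

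**Figure D1:**
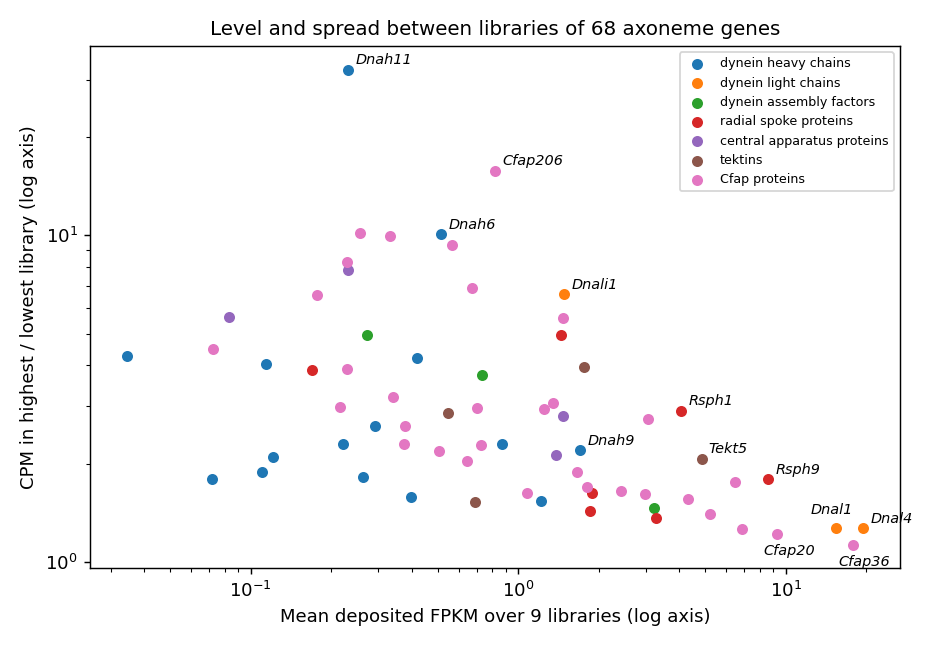
Mean deposited FPKM of each of the 68 tested axoneme genes over 9 libraries (horizontal, log axis) and the CPM in its highest library divided by that in its lowest (vertical, log axis); each point is a gene, coloured by class. Genes above 5 FPKM stay within 1.79-fold, and the widest ranges, up to 32.2-fold for Dnah11, lie below 1 FPKM.

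The same few libraries set the extremes for much of the set. Of the 25 genes with at least a 3-fold range, 23 were lowest in 3xTg vehicle replicate 3 or LP-10d replicate 3, and 21 were highest in WT vehicle replicate 2 or 3. These 25 were picked by their range in the same libraries, and the share among all genes with such a range was not computed. Over the 68 genes, 3xTg vehicle replicate 3 was the lowest library for 28 (41.2%), against 10.5% of all genes tested, and LP-10d replicate 3 for 18 (26.5%), against 7.94%. WT vehicle replicate 2 was the highest library for 25 genes (36.8%), against 12.9% of all genes tested. WT vehicle replicate 3 was highest for 20 (29.4%), close to its share of all genes tested, 26.3%. The median deviation of the 68 genes from their own mean, on the log2 scale, was 0.11, 0.14 and -0.30 in LP-10d replicates 1 to 3, -0.02, -0.10 and -0.30 in 3xTg vehicle replicates 1 to 3, and -0.03, 0.34 and 0.27 in WT vehicle replicates 1 to 3. WT vehicle replicate 1 lay near 3xTg vehicle replicate 1 and below the other WT libraries. LP-10d replicates 1 and 2 lay above all 3xTg vehicle libraries and LP-10d replicate 3 with the lowest of them.

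**Figure D2:**
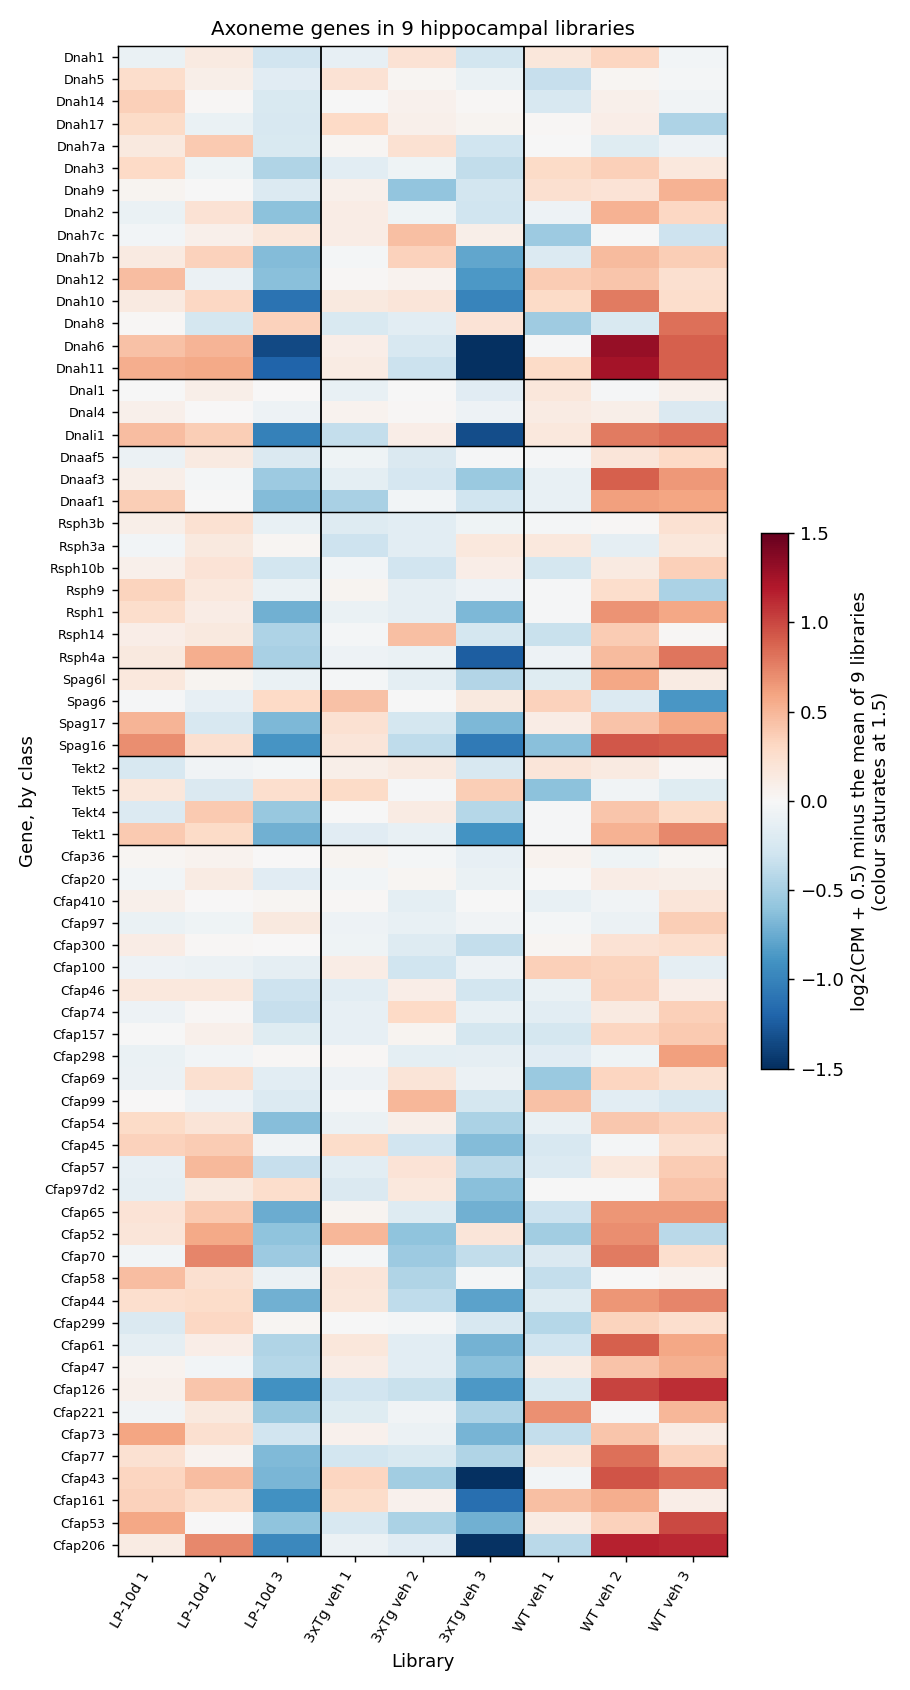
Level of each of the 68 tested axoneme genes (rows, by class, ordered by range within a class) in the 9 libraries (columns), as log2(CPM + 0.5) minus the mean of the gene over the 9 libraries. LP-10d replicate 3 and 3xTg vehicle replicate 3 are blue and WT vehicle replicates 2 and 3 red for most variable genes, and Dnal1, Dnal4, Cfap36, Cfap20 and Cfap410 are pale in all columns.

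The first comparison asked whether axoneme genes differ in vehicle-treated 3xTg mice from WT. No axoneme gene passed the test: 0 of 68 had an adjusted p under 0.05 with edgeR's quasi-likelihood test, where 0.00575% of all genes tested (1 gene) were called higher and 0% lower, and 0 of 68 passed with DESeq2, where 1.38% of all genes were called higher and 0.644% lower. Most point estimates lay below WT, 57 of 68 against 49.8% of all genes, with a median log2 fold change of -0.359 against 0.001 for all genes. At an unadjusted p under 0.05, 19 axoneme genes were lower and 2 higher, where 7.08% of all genes were lower and 7% higher. The 3 libraries of each group did not overlap for 17 genes lower and 2 higher in 3xTg vehicle, where the background is 7.99% lower and 9.38% higher. Without 3xTg vehicle replicate 3 the median was -0.260, and without WT vehicle replicate 1 it was -0.533. The genes were read from the same libraries, so their signs are not independent of each other, and the labels do not say whether libraries come from separate animals, so p-values measure the spread between these libraries.

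Among the motors, 10 of 15 dynein heavy chains were lower in 3xTg vehicle than in WT vehicle by their estimates and 5 were higher. Dnah9, an outer-arm heavy chain on chromosome 11 (65831282 to 66168551, minus strand, mm10), had 27.4, 26.7 and 23.2 CPM in LP-10d libraries, 28.1, 17.5 and 22.0 CPM in 3xTg vehicle libraries and 31.6, 30.9 and 38.6 CPM in WT vehicle libraries. All 3xTg libraries, treated or not, lay below all WT libraries. Dnah9 had the smallest p of the set, with a log2 fold change of -0.58 ± 0.16 (SE) for 3xTg vehicle against WT vehicle and an adjusted p of 0.206 with edgeR. Its adjusted p was 0.057 with DESeq2 and ran from 0.057 to 0.487 over the alternatives. Dnah6, an inner-arm heavy chain, had 7.84, 8.24 and 1.92 CPM in LP-10d libraries, 6.10, 4.71 and 1.47 CPM in 3xTg vehicle libraries and 5.60, 14.8 and 11 CPM in WT vehicle libraries. WT vehicle replicate 1 lay within the 3xTg range, and the log2 fold change was -1.35 ± 0.56 (SE; edgeR adjusted p = 0.326). Inner-arm chains Dnah1 and Dnah2 had log2 fold changes of -0.20 and -0.36, with adjusted p of 0.577 and 0.483 with edgeR.

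Dnah7c was a chain with the opposite sign. It had 3.00, 3.92 and 2.94 CPM in 3xTg vehicle libraries, against 1.71, 2.73 and 2.11 CPM in WT vehicle libraries, with no overlap (log2 fold change 0.58, edgeR adjusted p = 0.292); it is named for its groups that do not overlap. Of the 50-letter stretches of its transcripts, 46.8% also occur in another gene, as do 38.6% of those of Dnah7a and 30.0% of those of Dnah7b, inner-arm paralogs on the same chromosome. The values of these 3 genes are therefore uncertain, since no source used here says how such reads were counted. Dnah7a and Dnah7b had log2 fold changes of 0.13 and -0.36.

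The light chains separated by abundance. Dnal1, an outer-arm light chain on chromosome 12 (84114366 to 84147498, plus strand), had 106, 113 and 107 CPM in LP-10d libraries, 98.3, 106 and 94.6 CPM in 3xTg vehicle libraries and 120, 105 and 112 CPM in WT vehicle libraries; its log2 fold change for 3xTg vehicle against WT vehicle was -0.18 ± 0.08 (SE; edgeR adjusted p = 0.355). Dnal4 averaged 46.4 ± 2.16 CPM in 3xTg vehicle and 46.7 ± 5.97 CPM in WT vehicle (SD, n = 3 each). Dnali1, an inner-arm light chain, had 4.06, 3.79 and 1.15 CPM in LP-10d libraries, 2.10, 3.06 and 0.817 CPM in 3xTg vehicle libraries and 3.20, 5.19 and 5.40 CPM in WT vehicle libraries. The vehicle groups of Dnali1 did not overlap, and the log2 fold change was -1.21 ± 0.47 (SE; edgeR adjusted p = 0.308).

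Dynein assembly factors fold and join dynein arms in the cytoplasm before they enter the cilium. Dnaaf3 had 1.64, 1.48 and 0.878 CPM in LP-10d libraries, 1.32, 1.19 and 0.871 CPM in 3xTg vehicle libraries and 1.37, 3.25 and 2.67 CPM in WT vehicle libraries. Its vehicle groups did not overlap, but the gap between 3xTg vehicle replicate 1 and WT vehicle replicate 1 was small (log2 fold change -1.11 ± 0.35 SE, edgeR adjusted p = 0.240). Dnaaf1 had a similar log2 fold change of -1.12 (adjusted p = 0.331), and the better expressed Dnaaf5 one of -0.27 (adjusted p = 0.407), both with edgeR.

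Radial spokes reach from the doublets towards the central pair. Rsph1, a protein of the spoke head, had 6.49, 5.81 and 3.02 CPM in LP-10d libraries, 4.95, 4.82 and 3.16 CPM in 3xTg vehicle libraries and 5.26, 8.75 and 8.23 CPM in WT vehicle libraries. The vehicle groups were apart by the distance of 3xTg vehicle replicate 1 from WT vehicle replicate 1 (log2 fold change -0.78 ± 0.30 SE, edgeR adjusted p = 0.301). Rsph9, another head protein and the radial spoke gene with the highest FPKM, had a log2 fold change of 0.00 ± 0.19 (SE) for the same pair. It had 17.3, 15.3 and 12.7 CPM in LP-10d libraries, 14.0, 12.4 and 12.9 CPM in 3xTg vehicle libraries and 13.4, 16.4 and 9.68 CPM in WT vehicle libraries. Rsph9 overlaps Mrps18a, a mitochondrial ribosomal gene on the opposite strand with 5974 counts against 2240 for Rsph9. No source used here gives the strand setting, and 43 of the 72 genes overlap a gene on the opposite strand. Rsph3b and Rsph3a, spoke stalk paralogs, share 62.4% and 54.4% of their 50-letter stretches with another gene and had log2 fold changes of -0.23 and -0.17.

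In the central apparatus, 3 of 4 genes were lower in 3xTg vehicle by their estimates, and none had an unadjusted p under 0.05. Spag16 had 2.48, 1.66 and 0.494 CPM in LP-10d libraries, 1.58, 0.908 and 0.381 CPM in 3xTg vehicle libraries and 0.685, 2.99 and 2.95 CPM in WT vehicle libraries. Its WT libraries spread over more than the 3xTg vehicle libraries did, and the groups overlapped. Spag6 went the other way from its paralog Spag6l, at log2 fold changes of 0.41 and -0.44 with edgeR adjusted p of 0.529 and 0.385. Spag6 averaged 5.61 ± 0.976 CPM in 3xTg vehicle and 4.24 ± 1.92 CPM in WT vehicle (SD, n = 3 each).

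Tektins are filaments inside the doublets. Tekt1 (chromosome 11, 72344722 to 72362442, minus strand) had 3.67, 3.38 and 1.43 CPM in LP-10d libraries, 2.31, 2.44 and 1.2 CPM in 3xTg vehicle libraries and 2.63, 4.04 and 4.73 CPM in WT vehicle libraries. All 3xTg vehicle libraries lay below all WT libraries (log2 fold change -0.94 ± 0.38 SE, edgeR adjusted p = 0.314). Tekt5, known from sperm flagella, had 9.71, 7.29 and 10.3 CPM in LP-10d libraries, 10.6, 8.46 and 11.2 CPM in 3xTg vehicle libraries and 5.43, 8.28 and 7.51 CPM in WT vehicle libraries. Here all 3xTg vehicle libraries lay above all WT libraries (log2 fold change 0.51 ± 0.19 SE, edgeR adjusted p = 0.301). Tekt2 and Tekt4 had log2 fold changes of -0.14 and -0.47.

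Cfap proteins made up the largest class, and 29 of 32 were lower in 3xTg vehicle by their estimates (median log2 fold change -0.39), 9 of them at an unadjusted p under 0.05 (7.08% of all genes tested were lower at that p) and 6 with groups that did not overlap (7.99% of all genes were lower in this way). Cfap126, which lines the doublets and is needed for normal beating, had 2.43, 3.20 and 0.988 CPM in LP-10d libraries, 1.79, 1.70 and 1.03 CPM in 3xTg vehicle libraries and 1.88, 5.14 and 5.51 CPM in WT vehicle libraries (log2 fold change for 3xTg vehicle against WT vehicle -1.47 ± 0.47 SE, edgeR adjusted p = 0.240). WT vehicle replicate 1 stood just above the 3xTg vehicle libraries, far from the other WT libraries. Cfap53 and Cfap77, both inner proteins of the doublets, had log2 fold changes of -1.87 (adjusted p = 0.242) and -1.47 (adjusted p = 0.245) with edgeR on only 109 and 98 counts in all. Cfap44, which tethers inner dynein heads and whose promoter is shown above, had a log2 fold change of -0.78 ± 0.35 (SE; edgeR adjusted p = 0.352) and groups that overlapped. The most abundant members, Cfap36, Cfap20, Cfap410 and Cfap298, had log2 fold changes of -0.04, -0.10, -0.05 and -0.27; Cfap20 and Cfap410 are also known from basal bodies or primary cilia.

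**Figure D3:**
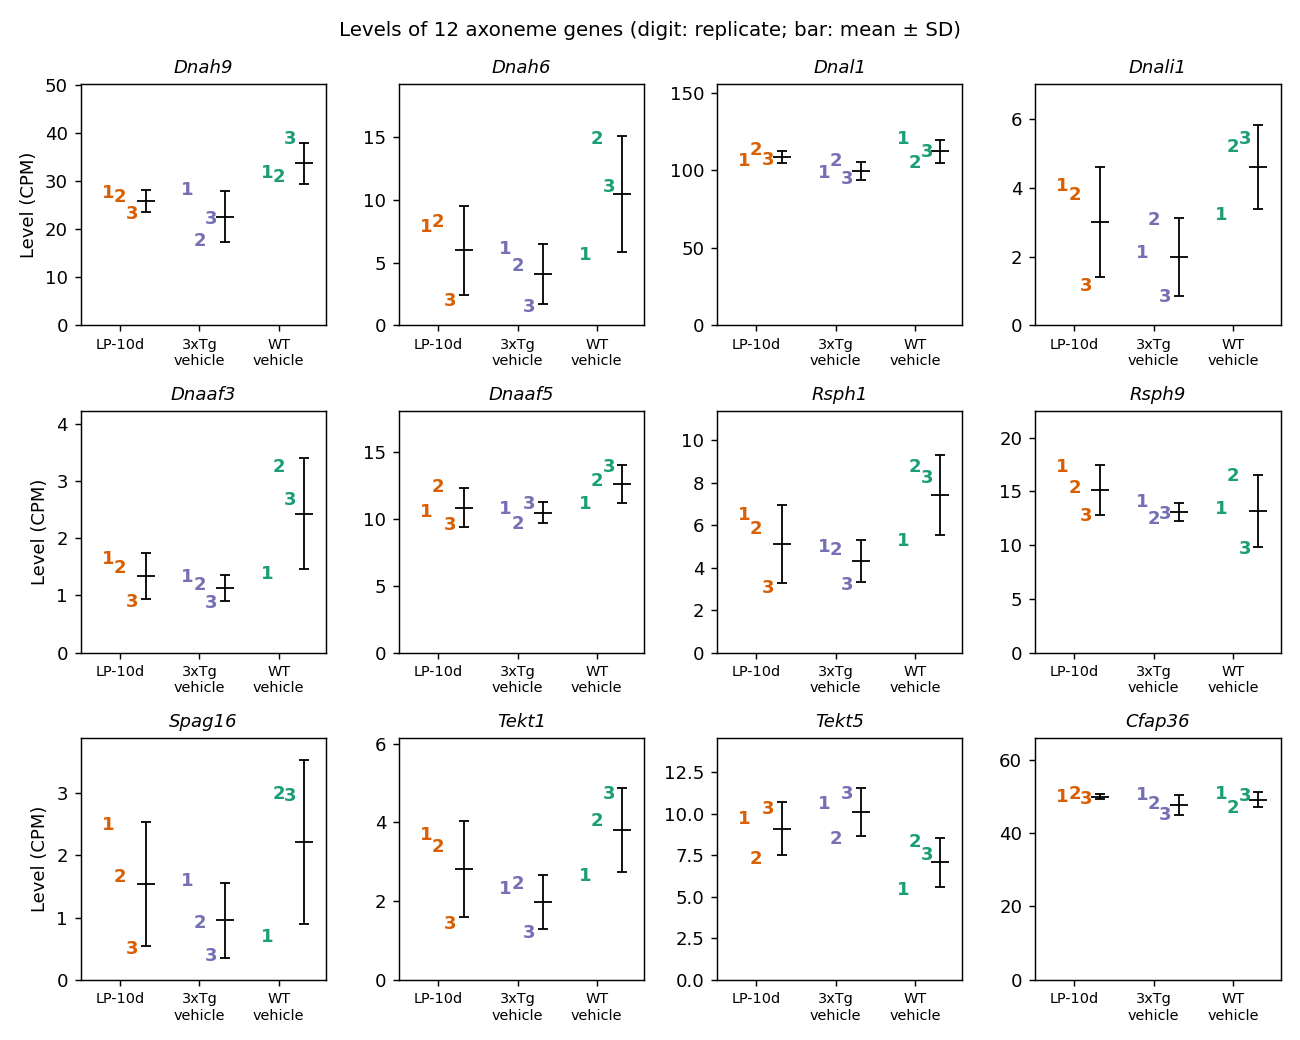
Level in CPM of 12 axoneme genes in LP-10d, 3xTg vehicle and WT vehicle libraries; each digit is a library with that replicate number, and bars are mean ± SD (n = 3). Dnah9, Dnali1, Dnaaf3, Rsph1 and Tekt1 sit lower in 3xTg vehicle than in WT vehicle with WT replicate 1 nearest to the 3xTg libraries for all but Dnah9, Tekt5 sits higher, and Dnal1, Rsph9 and Cfap36 overlap between groups.

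The second comparison asked whether LP-10d changes these genes in 3xTg mice. No axoneme gene passed: 0 of 68 had an adjusted p under 0.05 with edgeR (0% of all genes in either direction), 0 of 68 had an unadjusted p under 0.05 (0.948% of all genes higher and 1.95% lower), and 0 passed with DESeq2 (0% of all genes higher and 0.00575% lower). By their estimates 56 of 68 were higher in LP-10d than in 3xTg vehicle, against 49.9% of all genes, with a median log2 fold change of 0.163 against 0 for all genes. That median was 0.074 without 3xTg vehicle replicate 3, 0.069 without LP-10d replicate 1, 0.064 without LP-10d replicate 2 and 0.316 without LP-10d replicate 3. This comparison and the first share the 3xTg vehicle libraries, so opposite signs in the 2 are tied to those libraries.

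Cfap300 (chromosome 9, 8021672 to 8042823, minus strand), which takes part in dynein arm assembly, was the only axoneme gene whose 3 LP-10d libraries lay apart from the 3xTg vehicle libraries, where 5.82% of all genes lay higher without overlap. It had 7.39, 6.88 and 6.86 CPM in LP-10d libraries, 6.47, 5.90 and 5.23 CPM in 3xTg vehicle libraries and 6.97, 7.97 and 8.18 CPM in WT vehicle libraries. Its log2 fold change was 0.26 ± 0.14 (SE; adjusted p = 1 with edgeR) for LP-10d against 3xTg vehicle and -0.39 ± 0.13 (SE; adjusted p = 0.267) for 3xTg vehicle against WT vehicle. Cfap53 had the largest estimate, 1.13 ± 0.67 on the log2 scale (SE; adjusted p = 1 with edgeR), with 1.13, 0.593 and 0.220 CPM in LP-10d libraries, against 0.421, 0.284 and 0.163 CPM in 3xTg vehicle libraries. Cfap45, an inner protein of the doublets, had 5.30, 5.45 and 3.90 CPM in LP-10d libraries, against 5, 3.24 and 2.40 CPM in 3xTg vehicle libraries (log2 fold change 0.46). Dnah9 had a log2 fold change of 0.19 ± 0.17 (SE), Dnali1 of 0.59 ± 0.50 (SE) and Tekt1 of 0.50 ± 0.39 (SE). LP-10d replicate 3 had the lowest LP-10d level of Dnah9, Dnali1 and Tekt1.

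The third comparison set LP-10d against WT vehicle. Again 0 of 68 axoneme genes passed with edgeR (0% of all genes in either direction) or DESeq2 (0.155% higher and 0.109% lower), while 53 had lower estimates in LP-10d (50.5% of all genes were lower) and the median log2 fold change was -0.236, against -0.003 for all genes. At an unadjusted p under 0.05, 2 genes were lower, Dnah9 and Dnaaf3 (4.67% of all genes), and 0 higher (4.08%). Groups did not overlap for 3 genes, all lower in LP-10d: Dnah9, Cfap47 and Tekt2 (6.89% of all genes). The log2 estimate was -0.39 ± 0.16 (SE) for Dnah9 and -0.88 ± 0.34 (SE) for Dnaaf3, and edgeR's adjusted p was 0.569 for each. Cfap47, a central apparatus protein encoded on chromosome X, had 0.734, 0.652 and 0.384 CPM in LP-10d libraries, against 0.800, 1.10 and 1.22 CPM in WT vehicle libraries. The median was -0.111 without LP-10d replicate 3 and -0.382 without WT vehicle replicate 1. This comparison shares its libraries with the other 2.

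**Figure D4:**
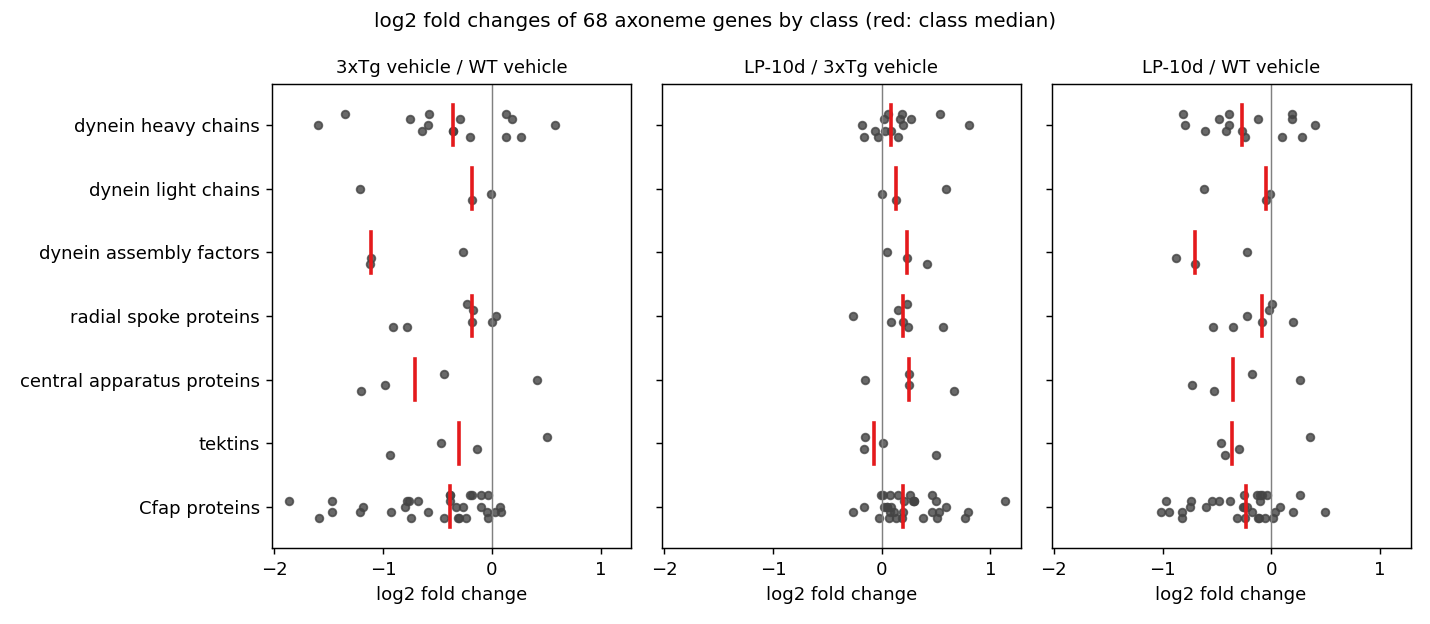
log2 fold changes (horizontal) of the 68 tested axoneme genes by class (rows) in the 3 comparisons; each point is a gene and the red bar is the class median. Points lean below 0 in 3xTg vehicle against WT vehicle (median of all 68 genes -0.359), lean above 0 in LP-10d against 3xTg vehicle (0.163), and lean below 0 in LP-10d against WT vehicle (-0.236); none passed the test.

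Genes outside the name rule that serve the same organelle were read beside them. Of 34 tested genes for docking complexes, the nexin-dynein regulatory complex, assembly and other axoneme parts, 28 had lower estimates in 3xTg vehicle than in WT vehicle (median log2 fold change -0.405) and 24 had higher estimates in LP-10d than in 3xTg vehicle (median 0.178); 0 passed with edgeR in any comparison, and 11 had an unadjusted p under 0.05 in the first, all lower, where 7.08% of all genes tested were lower at that p. Intraflagellar transport genes, whose trains build motile and primary cilia alike, summed to 1073, 1087 and 1121 CPM in LP-10d libraries, 1085, 1080 and 1094 CPM in 3xTg vehicle libraries and 1067, 1053 and 1083 CPM in WT vehicle libraries. Of the 26 tested, 12 had lower estimates in 3xTg vehicle than in WT vehicle, with a median of 0.018. The 23 genes of the primary cilium of neurons had a median of 0.003. None of these 26 and 23 genes passed with edgeR in any comparison. Ttc8, a subunit of the BBSome that moves cargo through primary cilia, was the 1 gene of these lists that DESeq2 called lower in 3xTg vehicle than in WT vehicle. DESeq2 called 0.644% of all genes tested lower in that pair. Ttc8 had 20.9, 27.0 and 21 CPM in LP-10d libraries, 18.9, 18.7 and 16.9 CPM in 3xTg vehicle libraries and 26.2, 27.7 and 29.8 CPM in WT vehicle libraries (log2 fold change for 3xTg vehicle against WT vehicle -0.62 ± 0.12 SE, adjusted p = 0.0953 with edgeR and 0.00139 with DESeq2). Ift74, a core transport protein, had 11.1, 13.5 and 12.7 CPM in LP-10d libraries, 10.0, 9.02 and 10.0 CPM in 3xTg vehicle libraries and 12.1, 12.1 and 13.5 CPM in WT vehicle libraries, with an adjusted p of 0.239 for 3xTg vehicle against WT vehicle and of 1 for LP-10d against 3xTg vehicle, both with edgeR.

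Of 13 tested transcription factors of ciliogenesis, 9 had lower estimates in 3xTg vehicle than in WT vehicle (median log2 fold change -0.256), and 0 passed with edgeR. Foxj1 had 21.2, 20.2 and 8.67 CPM in LP-10d libraries, 15.8, 13.7 and 7.46 CPM in 3xTg vehicle libraries and 17.5, 32.1 and 32.8 CPM in WT vehicle libraries. Its vehicle groups did not overlap, with a log2 fold change of -1.15 ± 0.37 (SE). The adjusted p of Foxj1 was 0.244 with edgeR and 0.0566 with DESeq2. Gmnc, which starts the multiciliated programme, had a log2 fold change of -1.10 (adjusted p = 0.286), Rfx2 of -0.59 (adjusted p = 0.361) and Rfx3, also expressed in other brain cells, of 0.08 (adjusted p = 0.777), all with edgeR. Mcidas, which acts beside Gmnc, had the opposite sign, 0.80 (edgeR adjusted p = 0.345), on 115 counts in all. Its vehicle groups did not overlap either, with 0.631, 1.02 and 1.14 CPM in 3xTg vehicle libraries and 0.571, 0.472 and 0.556 CPM in WT vehicle libraries.

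Markers of ependyma and choroid plexus also differed between libraries, and followed the axoneme genes only in part. The ependymal list held 18 genes outside the rule, 17 of them tested; Mia had 2 counts over all libraries. Of these, Foxj1, Dynlrb2, Enkur and Ak7 also stand in the lists above. Summed over the 17 genes, ependymal markers stood at 70.5, 72.9 and 36.1 CPM in LP-10d libraries, 59.0, 55.6 and 29.6 CPM in 3xTg vehicle libraries and 67.7, 97.6 and 79.1 CPM in WT vehicle libraries. Their estimates were lower in 3xTg vehicle than in WT vehicle for 16 of 17 (median log2 fold change -0.928) and higher in LP-10d than in 3xTg vehicle for 17 of 17 (median 0.371); 0 passed with edgeR. 3xTg vehicle replicate 3 and LP-10d replicate 3, the lowest libraries for axoneme genes, were the lowest for these markers too. Choroid plexus markers had lower estimates in 3xTg vehicle than in WT vehicle for 17 of 17 (median -2.658) and higher ones in LP-10d than in 3xTg vehicle for 17 of 17 (median 1.727), and 0 passed with edgeR. These 17 genes, with Slco1a5 alone at 0 in a library, ranged widely: their sum was 2235, 4044 and 196 CPM in LP-10d libraries, 1564, 351 and 194 CPM in 3xTg vehicle libraries and 232, 6440 and 4022 CPM in WT vehicle libraries. WT vehicle replicate 1, which lay near 3xTg libraries in its axoneme genes, had little choroid plexus signal. Its ependymal sum, 67.7 CPM, lay above those of all 3xTg vehicle libraries. The part of ependymal and choroid plexus content in the axoneme values was not tested.

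**Figure D5:**
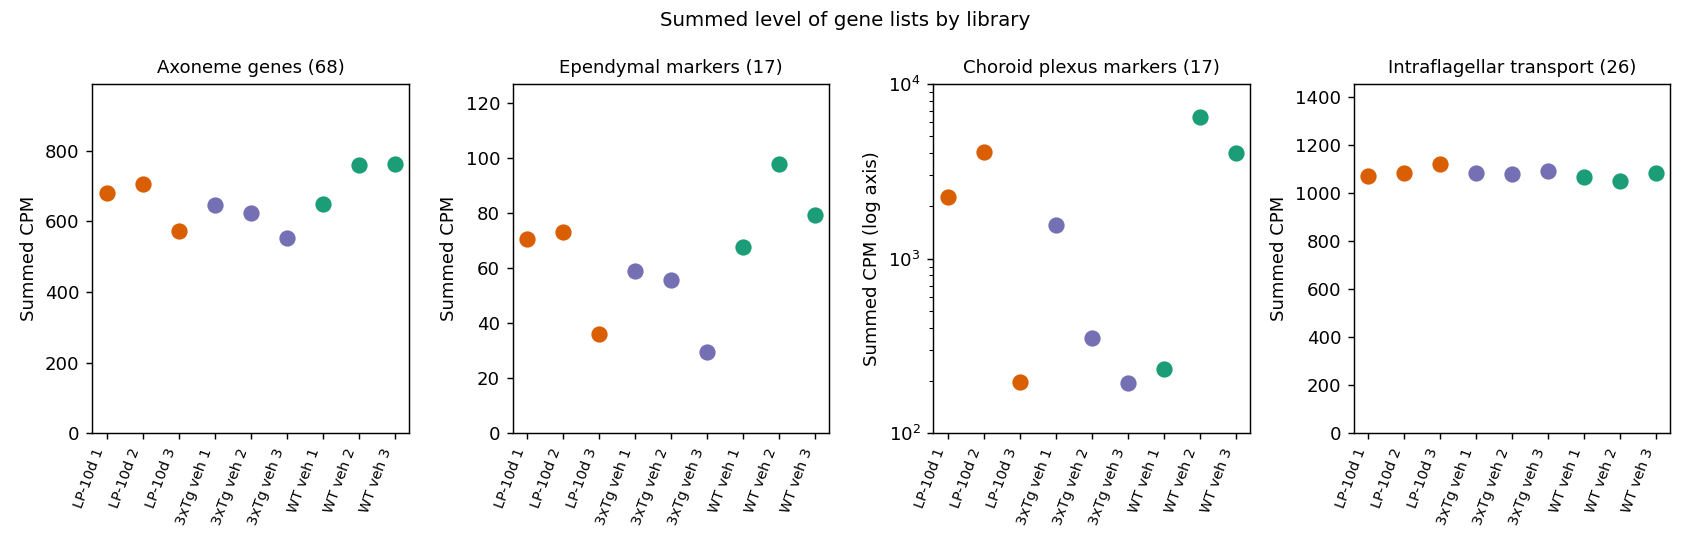
Summed CPM in each of the 9 libraries (LP-10d, 3xTg vehicle and WT vehicle, left to right) of the 68 axoneme genes, 17 ependymal markers, 17 choroid plexus markers (log axis) and 26 intraflagellar transport genes. Axoneme genes run from 554 to 761 CPM, of which Dnal1 alone gives 94.6 to 120 CPM. They are low in LP-10d replicate 3 and 3xTg vehicle replicate 3, as are the ependymal and choroid plexus sums. The choroid plexus sum is also low in WT vehicle replicate 1 (232 CPM) and 3xTg vehicle replicate 2 (351 CPM). Intraflagellar transport stays between 1053 and 1121 CPM.

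Lists of other cell types also differed between libraries. The 12 markers of hippocampal neurons summed to 3224, 3229 and 3323 CPM in LP-10d libraries, 3493, 2474 and 3053 CPM in 3xTg vehicle libraries and 3910, 2941 and 3435 CPM in WT vehicle libraries. Their estimates were lower in 3xTg vehicle than in WT vehicle for 11 of 12 (median log2 fold change -0.504, further from 0 than the axoneme median). Of these, 5 had an unadjusted p under 0.05 with edgeR, where 7.08% of all genes tested were lower at that p. Estimates were higher in LP-10d than in 3xTg vehicle for 10 of 12 (median 0.189). 3xTg vehicle replicate 2 was the lowest library for 10 of the 12, while it was the lowest for 7 of the 68 axoneme genes. Of 10 genes of the neurogenic niche, 8 had lower estimates in 3xTg vehicle than in WT vehicle (median -0.427) and 6 higher ones in LP-10d than in 3xTg vehicle (median 0.098). DESeq2 called 2 of these 10 genes lower in 3xTg vehicle than in WT vehicle, where it called 0.644% of all genes tested lower. They were Neurod1 and Eomes, transcription factors of newborn neurons and their progenitors. Neurod1 had 9.65, 13.8 and 12.5 CPM in LP-10d libraries, 9.73, 7.15 and 9.04 CPM in 3xTg vehicle libraries and 13.3, 14 and 24.8 CPM in WT vehicle libraries (adjusted p = 0.161 with edgeR and 0.0109 with DESeq2). Eomes, on 194 counts in all, had adjusted p of 0.194 with edgeR and 0.0258 with DESeq2. Astrocyte markers had lower estimates in 3xTg vehicle than in WT vehicle for 7 of 10 (median -0.134) and higher ones in LP-10d than in 3xTg vehicle for 9 of 10 (median 0.085). Vascular and meningeal markers had lower estimates for 9 of 12 in the first pair (median -0.114) and for 7 of 12 in the second (median -0.035). None of the genes of these 4 lists passed with edgeR in any comparison, and their part in the axoneme values was not tested.

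Markers of striatum and thalamus summed to 1434 CPM in 3xTg vehicle replicate 2, against 178 to 481 CPM in the other libraries, and no gene of that list was at 0. Of the 14 genes, 8 had higher estimates in 3xTg vehicle than in WT vehicle (median log2 fold change 0.789) and 14 lower ones in LP-10d than in 3xTg vehicle (median -1.738), and 0 passed with edgeR. WT vehicle replicate 3 had 5.04% of its counts in mitochondrial genes, against 2.28% to 2.86% elsewhere. Without 3xTg vehicle replicate 2 and WT vehicle replicate 3 together, the median axoneme log2 fold change was -0.397 in 3xTg vehicle against WT vehicle, 0.220 in LP-10d against 3xTg vehicle and -0.191 in LP-10d against WT vehicle, and 0 genes passed in each. With 3 libraries against 3, an exact permutation test of a single value cannot go below p = 0.1.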

How the data were processed

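Per the labels' protocols, hippocampal RNA was extracted in TRIzol, cleaned on columns and, at 300 ng a sample, turned into MGI libraries. The authors deposited raw read counts for 55471 genes and FPKM for the 33175 genes with a count; the submitters' processing notes give the build mm10. No source used here names an aligner, a counter or a strand setting. Total counts of 16582086 to 19170969 per library leave many axoneme genes at low counts, which limits precision.

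Counts were fitted with edgeR 4.0.16 in R 4.3.3 over all 9 libraries: filterByExpr (17396 genes), TMM scaling, group means, the quasi-likelihood test in its newer form and Benjamini-Hochberg adjustment over all genes tested, with a threshold of 0.05. CPM used TMM-scaled totals. Alternatives were DESeq2 1.42.0, other scalings, no filter, a replicate block, a fit of 6 libraries, each library left out and limma-trend (limma 3.58.1) on log2(FPKM + 0.1) and log2(FPKM + 1), which understates changes of low genes. Libraries within a group differed by more than sampling noise (chi-square per gene 4.99 to 51.1).

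Genes named are up to 4 per class with the highest mean FPKM, the 5 with the smallest p per comparison, and, in other lists, up to 4 by FPKM and 2 by p; others were named after their values were seen. The axoneme genes and gene lists were chosen with earlier results of these data known. Dnaic1 and Dnaic2, older symbols for dynein intermediate chains, do not match the name rule and were left out. Of the gene lists, Foxn4, Pierce1 and Pih1d3 were not matched by symbol. Overlaps and shared 50-letter stretches were taken from GENCODE M21, and promoters from RefSeq; 12 members had no RefSeq match: Cfap157, Cfap299, Cfap53, Cfap54, Cfap65, Cfap73, Cfap97, Dnaaf1, Dnah3, Rsph1, Rsph10b and Rsph4a. A further part of the 3xTg genotype is not reported here.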

Additional observations from a re-analysis of the deposited data

How the results depend on the processing

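No axoneme gene passed in any comparison with any of the 18 alternatives run. With DESeq2, 240 genes of all tested were called higher and 112 lower in 3xTg vehicle than in WT vehicle, against 1 and 0 with edgeR, and 27 and 19 in LP-10d against WT vehicle, against 0 and 0; DESeq2 gave no adjusted p for 10 axoneme genes in the first comparison. The median log2 fold change of axoneme genes kept its sign throughout. In 3xTg vehicle against WT vehicle it was -0.112 on log2(FPKM + 1), against -0.359 with edgeR, and between -0.533 and -0.260 without 1 library. In LP-10d against 3xTg vehicle it ran from 0.064 to 0.316 without 1 library, and in LP-10d against WT vehicle from -0.382 to -0.111. Deviations of same-numbered libraries correlated between -0.17 and 0.38, and those of different-numbered libraries between -0.31 and 0.40. Between 3xTg vehicle and LP-10d, same-numbered libraries gave 0.19, 0.09 and 0.38, and the others -0.30 to 0.18. Same-numbered pairs that include a WT library gave -0.17 to 0.19. These values do not settle whether the replicate numbers pair the libraries. With the replicate block, 0 axoneme genes passed, and the medians were -0.353, 0.159 and -0.237 in the 3 comparisons in the order given above. The fit that leaves out 3xTg vehicle replicate 2 and WT vehicle replicate 3 was added after seeing the data.

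Of 99 log2 fold changes, 33 genes in 3 comparisons, 27 changed sign under some alternative, none of them above 0.42 in size with edgeR. In 3xTg vehicle against WT vehicle, Dnal4 was 0.03 with library totals only and 0.04 with both FPKM scales, and Rsph9 was 0.03 with library totals only, 0.02 with the replicate block, 0.07 on log2(FPKM + 0.1) and 0.06 on log2(FPKM + 1). With those 2 libraries left out, Cfap410 was 0.09, Cfap298 0.05, Rsph10b 0.08 and Cfap45 0, while Dnal4 kept its sign at -0.13. In LP-10d against 3xTg vehicle, Tekt4 was -0.01 with the replicate block, -0.04 on log2(FPKM + 0.1) and 0 on log2(FPKM + 1), and without those 2 libraries Dnaaf5 was -0.01, Dnah1 0.13 and Rsph10b -0.01. In LP-10d against WT vehicle, Dnal4 was 0.04 with library totals only, 0.05 on log2(FPKM + 0.1) and 0.04 on log2(FPKM + 1), and without those 2 libraries Spag6 was -0.02, Cfap298 0.08 and Rsph10b 0.06. The cause was not tested.

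Without 1 library, the values that changed sign in 3xTg vehicle against WT vehicle ran from -0.42 to 0.02 for Cfap298, -0.11 to 0.03 for Cfap410, -0.54 to 0.02 for Cfap45, -0.12 to 0.05 for Dnal4, -0.34 to -0.03 for Rsph10b (whose sign changed above) and -0.19 to 0.19 for Rsph9. In LP-10d against 3xTg vehicle they ran from -0.07 to 0.08 for Cfap20, -0.17 to 0.58 for Cfap221, -0.21 to 0.49 for Cfap47, -0.07 to 0.80 for Dnaaf1, -0.06 to 0.13 for Dnaaf5, -0.15 to 0.12 for Dnah1, -0.28 to 0.14 for Dnah2, -0.03 to 0.04 for Dnal4, -0.02 to 0.22 for Rsph10b, -0.56 to 0.86 for Spag17, -0.30 to 0 for Spag6 and -0.47 to 0.30 for Tekt4. In LP-10d against WT vehicle they ran from -0.36 to 0.08 for Cfap298, -0.01 to 0.05 for Cfap36, -0.03 to 0.12 for Cfap410, -0.10 to 0.01 for Dnal1, -0.11 to 0.06 for Dnal4, -0.25 to 0.06 for Rsph10b, -0.08 to 0.09 for Rsph3b, -0.02 to 0.64 for Spag6 and -0.35 to 0.06 for Spag6l.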
